A study of Piaractus mesopotamicus with 6 samples.

Results

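The fast-twitch muscle of young pacu, the South American river fish Piaractus mesopotamicus, was described on its own from its 3 RNA sequencing libraries, out of 6 libraries in the series. For each gene symbol, ignoring case, the assembled transcript with the highest mean over the 3 tissue libraries was kept, and the 13485 symbols were ranked by that mean. The 300 highest symbols were described by function and by dominant gene copy, and 7715 symbols with a mean normalised count of 100 or more were described by their spread. The rule used the tissue levels themselves, so the ranks and the 300 are a description and carry no test.

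The fish weighed 12 to 20 g, were kept at 28 °C and ate commercial food to satiation. They were wild type and had no treatment other than this feeding. The tissue came from 6 animals, and the sources used here do not say whether a library pools animals, so the spread given is between libraries and may hold little of the variation between fish. The other 3 libraries, of muscle cells grown in culture, were not used.

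Fast muscle fibres power short bursts of swimming. Their myosin motors on the thick filament pull on actin of the thin filament when calcium released from the sarcoplasmic reticulum binds troponin, and parvalbumin and the SERCA pump then take the calcium away again. Energy for a burst comes mostly from phosphocreatine and from glycogen broken down to lactate, while slow fibres, which hold myoglobin and other myosin and troponin genes, rely on mitochondria. Bony fish carry extra copies of many of these genes from a whole-genome duplication in their ancestry, so that a family often has an a and a b copy.

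Levels are given either as normalised counts or as percent of the library total, and errors are SD over the 3 libraries. Neither is corrected for transcript length, because no lengths were used, so a long transcript such as titin takes a larger share of reads than a short one at the same number of molecules. The recovered read totals were 118183731, 124715222 and 124752600 in libraries 1, 2 and 3. A floor of 3 reads equals a normalised count of 8.02, 5.95 and 5.97, which covers counting error only. Library 1 stood apart before any gene was considered. It had 23.6% of its 71447 rows at 0 against 12.6% in each of the other libraries, and its normalised total was 316135429 against 247390125 and 248165000. Across the 7715 symbols the log2 levels of libraries 2 and 3 correlated at 0.946, and those of library 1 with them at 0.892 and 0.896. On the deposited scale the median symbol was 0.984 times as high in library 1 as in library 2, but at equal library totals 0.770 times. Statements that set library 1 above or below the others are therefore given on both scales where they differ. Normalised counts printed alone are on the deposited scale only.

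A small part of the genes made up most of what could be assigned to 1 row per symbol. The 10 highest symbols held 10.3%, 9.04% and 9.44% of the library total, 9.59% ± 0.635. The 300 highest held 23.7%, 21.2% and 22.2%, 22.4% ± 1.24, which is 90.7% ± 1.46 of the reads on the kept rows of all symbols. Library 1 was the highest in both sums. With all rows of these 300 symbols added up, they held 59.3% ± 3.43 of the total. The rank fell slowly at its end, where slc25a3b, the mitochondrial phosphate carrier at rank 300, had a mean of 11239 and gtpbp4, a ribosome assembly factor at rank 301, had 11196.

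Other kinds of row lay outside this ranking. Rows named only by an Ensembl identifier held 30.9%, 36.0% and 33.7% of the library totals, and further rows of ranked symbols held 43.5%, 40.3% and 41.7%. Of the 300 symbols, 285 had 2 or more rows, and in 129 the next row lay within 10% of the first, so a read that fits more than 1 transcript may enter the totals repeatedly. The 300 fell into 261 assembled genes, and 68 of them shared an assembled gene with another of the 300.

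The myosin heavy chain, the motor of the thick filament, was the transcript most affected by this naming. The highest row of myhz1.1, a fast myosin heavy chain, held 0.815%, 1.203% and 1.05% of the library totals and ranked 5. The assembled gene it belongs to held 14.1%, 16.9% and 15.9%, more than any other, and 6 of its 7 rows carried only an identifier. The cluster of related transcripts around it, with 24 rows in 7 assembled genes, also holds the row named MYH6 and took 28.0% ± 1.81 of the total. Within that cluster the rows without a symbol made up 26.6% ± 1.62 of the total. By symbol the list thus opened with the creatine kinase ckmb on the mean of the 3 libraries. In no single library was ckmb first. By assembled gene the list opened with myosin heavy chain in each of the 3 libraries. The next assembled gene had no symbol at all (12.0% ± 0.384). By its size it must lie in the same cluster, whose rows without a symbol could not reach 26.6% otherwise. Then came the actins, with 5 symbols in 1 assembled gene at 6.86% ± 0.352, and the parvalbumins pvalb2, pvalb3 and pvalb4 at 7.04%, 4.73% and 6.11%.

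The 20 highest symbols were, with 2 exceptions, genes of contraction, calcium handling and energy supply from glycolysis, glycogen and phosphocreatine. The exceptions were COX1, a cytochrome c oxidase subunit encoded in the mitochondrial genome, and zgc:86709, a placeholder name that shares the actins' assembled gene. The muscle creatine kinase ckmb, which regenerates ATP from phosphocreatine, was first on the mean, at 1.2996%, 1.05% and 1.06% of the library totals, 1.14% ± 0.140. The regulatory light chain mylpfa, which sits on the neck of fast myosin, held 1.19%, 0.953% and 1.24%. The parvalbumin pvalb4 held 1.36%, 0.884% and 1.08%. The first 4 symbols differed by less than their spread, since aldoab, the muscle aldolase that splits fructose bisphosphate in glycolysis, was at 1.17%, 1.06% and 0.878%. The order changed between libraries, with pvalb4 first in library 1, myhz1.1 in library 2 (1.203%) and mylpfa in library 3.

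**Figure D1:**
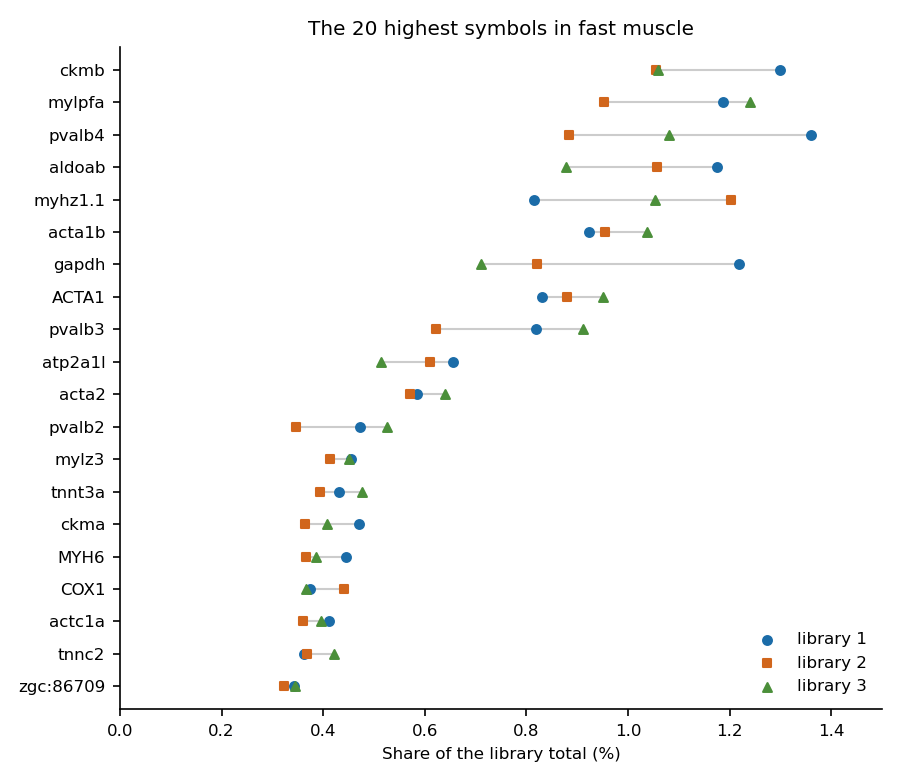
Share of the library total in percent (horizontal axis) of the 20 symbols with the highest tissue mean, with 1 mark per library and a grey line over their range. The ranges of the first 5 symbols, from ckmb to myhz1.1, overlap with one another, and gapdh has the library 1 value farthest from the others.

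Next in order were the skeletal actins acta1b at 0.924%, 0.954% and 1.04% and ACTA1 at 0.832%, 0.880% and 0.951%. By share both were lowest in library 1, while on the deposited scale both were highest there, with 2920520, 2360600 and 2576220 for acta1b and 2628730, 2178000 and 2359460 for ACTA1. The glycolytic enzyme gapdh held 1.22%, 0.822% and 0.711%, with library 1 clearly above the others. The calcium pump atp2a1l, which returns calcium to the sarcoplasmic reticulum, held 0.656%, 0.611% and 0.513%. Lower in the list stood the essential light chain mylz3 (0.439% ± 0.0232), the fast troponin T tnnt3a (0.434% ± 0.0414), the second creatine kinase ckma (0.414% ± 0.0532) and the fast troponin C tnnc2 (0.385% ± 0.0321). MYH6, which in mammals names a cardiac myosin heavy chain, stood at 0.399% ± 0.0405, and acta2 and actc1a, which in mammals name smooth muscle and cardiac actins, at 0.598% ± 0.0366 and 0.389% ± 0.0266. The acta2 row lies in the assembled gene of the skeletal actins and the MYH6 row in the cluster of myhz1.1. These names were assigned by similarity, and near-identical copies can exchange reads, so the level of a single copy is uncertain.

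By function, the 300 split into 13 classes, 1 of them for other genes, and 12 placeholder names. Energy supply from glycolysis, glycogen and phosphocreatine took the largest share with 32 symbols, at 6.33%, 5.24% and 4.71% of the library totals. The thin filament followed with 14 symbols and 4.92% ± 0.325, the thick filament with 13 symbols and 3.56% ± 0.128, and calcium handling with 18 symbols at 3.80%, 2.96% and 3.58%. Titin, M-band and Z-disc genes, the scaffold that holds the filaments in register, numbered 30 and took 1.205% ± 0.106. Energy supply stood first in libraries 1 and 2 and the thin filament in library 3, and calcium handling stood above the thick filament in library 1 alone. This order holds for 1 row per symbol. With all rows of a symbol summed the thin filament came first, at 15.5% against 13.3% for energy supply, and calcium handling at 9.09% passed the thick filament at 7.44%. None of these shares holds the rows of the myosin heavy chain cluster that carry only an identifier, 26.6% of the total.

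**Figure D2:**
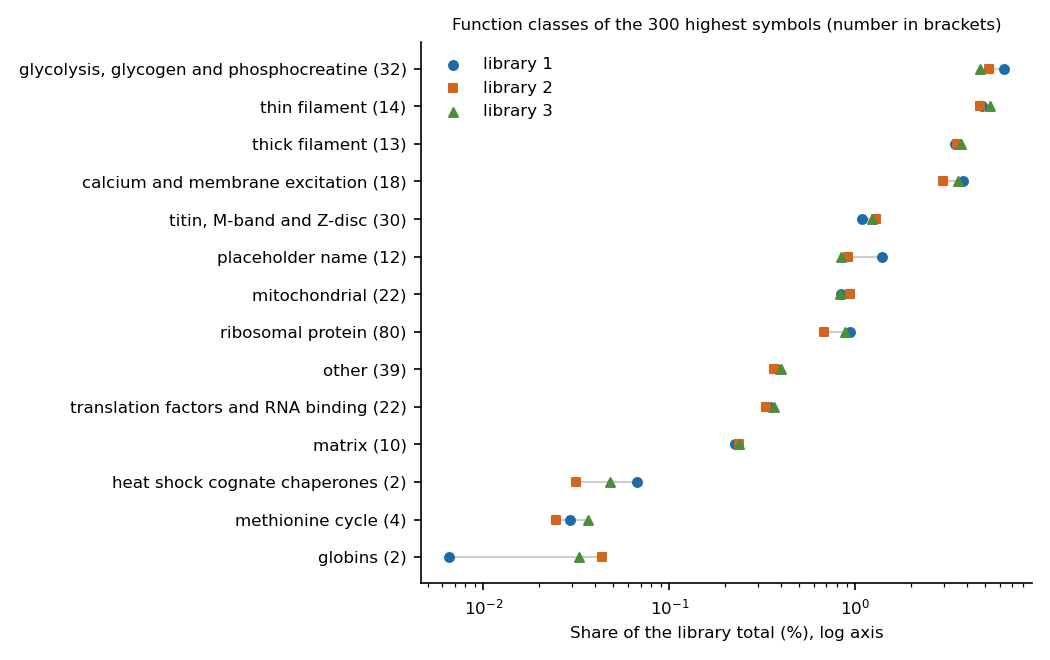
Share of the library total in percent on a log axis for each function class of the 300 highest symbols, with the number of symbols in brackets and 1 mark per library. Classes of the contractile apparatus differ little between libraries, while globins are lowest in library 1 (0.00653%) and placeholder names are highest there (1.39%).

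Ribosomal proteins were the most numerous class, with 80 of the 300 symbols, but took only 0.936%, 0.679% and 0.885%. Their highest member rplp0, of the ribosomal stalk, held 0.0334% ± 0.00552, and rps2 of the small subunit 0.0316% ± 0.00528. On the deposited scale 79 of the 80 were highest in library 1, where 38.6% of the 7715 symbols were. At equal totals 60 of the 80 were, where 20.3% of all symbols were, and 244 of the 300 became 136. Translation factors and RNA-binding proteins added 22 symbols and 0.347% ± 0.0170, led by ybx1, an mRNA-binding protein, at 0.0751% ± 0.00790.

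The mitochondrial class had 22 symbols and 0.866% ± 0.0595. COX1 at 0.374%, 0.440% and 0.367%, ND5 at 0.193% ± 0.0155 and COX3 at 0.0741% ± 0.00883, all encoded in the mitochondrial genome, made up most of it. Nuclear genes were lower, led by the ADP/ATP carriers slc25a4 (0.0441% ± 0.00674) and slc25a6 (0.0237% as a mean), which share an assembled gene. The ATP synthase subunit atp5f1b stood at 0.0169% ± 0.00139, well under the glycolytic lactate dehydrogenase ldha at 0.120% ± 0.0128 on the same scale of read share. Genes of the extracellular matrix numbered 10 and had a narrow range of 0.225%, 0.236% and 0.238%, led by collagen I with col1a2 at 0.0920% ± 0.00149.

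Small classes were the globins, with HBE1 and the myoglobin gene mb, at 0.00653%, 0.0436% and 0.0328%, and the heat shock cognate chaperones hsc70 and hspa8, at 0.0672%, 0.0314% and 0.0480%. A methionine-cycle group of 4 symbols, mat1a, bhmt, mat2ab and ahcy, took 0.0301% ± 0.00608. These enzymes make and recycle S-adenosylmethionine, the methyl donor of the cell. The class of other genes had 39 symbols and held 0.381% ± 0.0168, led by arf5, a small GTPase of vesicle traffic, at 0.0358% ± 0.00489.

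In most families the same member was highest in every library. In 49 families with at least 2 members, the highest member was the same in all 3 libraries for 45. The highest member held 90% or more of the family's summed level in 13 families and under 50% in 9. These counts follow the families as listed, whose members are not always copies of the same gene. The elongation factors 2, among the 9, also hold eef2k and eef2kmt, which are not copies of the factor. The hemoglobin and collagen I families set different chains side by side. In 16 families the 2 highest members lay in 1 assembled gene, which leaves their split uncertain. These include the creatine kinases, ryanodine receptors, regulatory and essential myosin light chains, alpha-actinins, elongation factors 2, calmodulins and collagen I. With all rows of a symbol summed, 43 families had the same highest member.

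**Figure D3:**
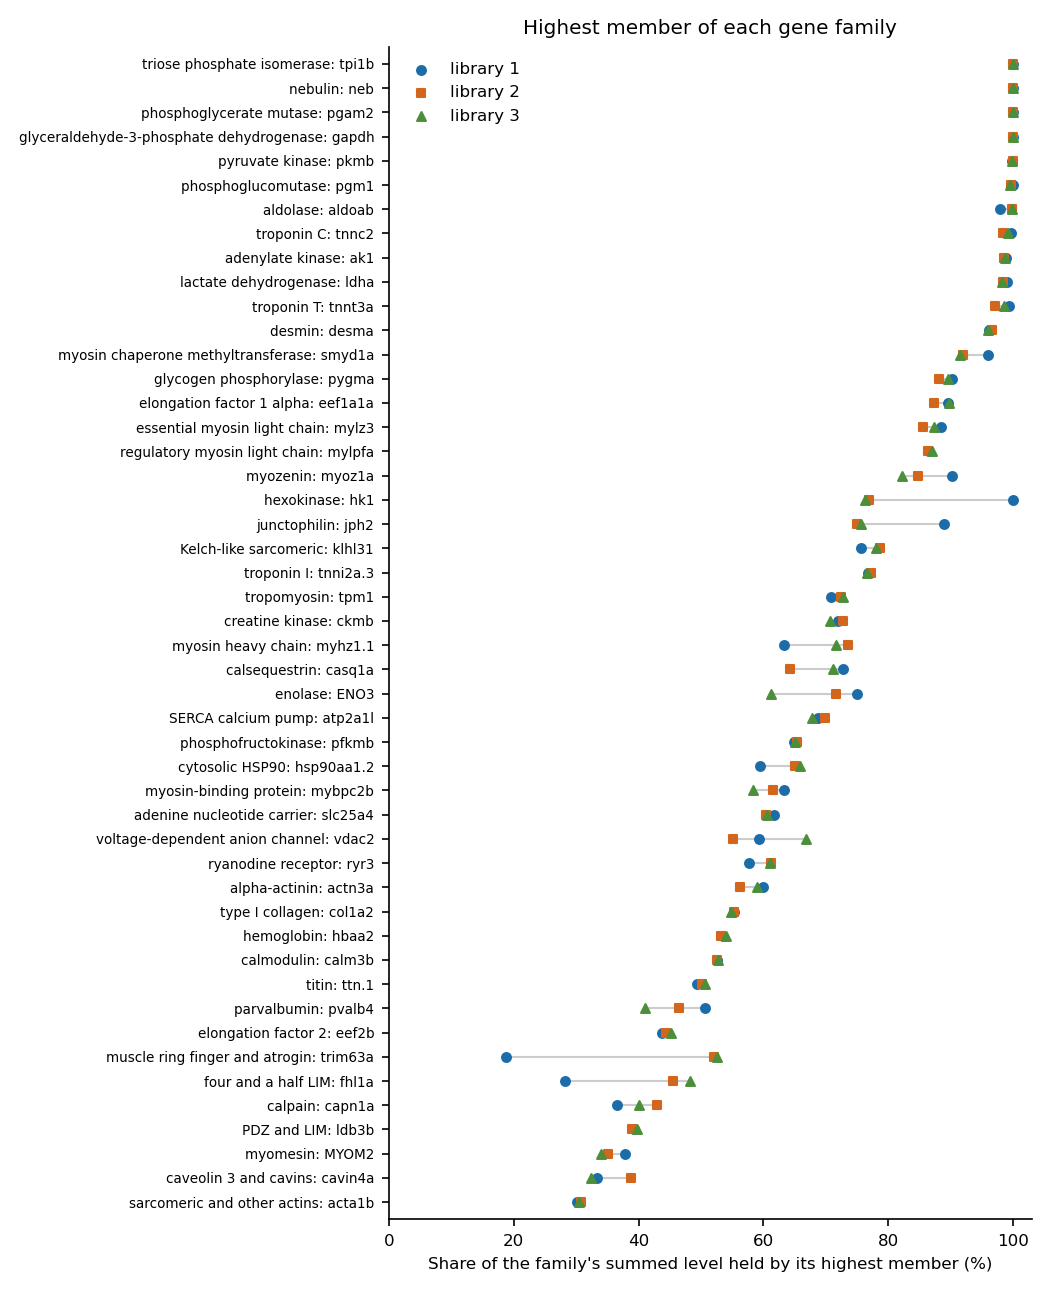
Share in percent of each family's summed level that its highest member holds, 1 mark per library, for gene families with at least 2 members, ordered by the mean. Not every such family is shown. Glycolytic enzymes such as gapdh, pgam2 and pkmb and the troponins tnnc2 and tnnt3a sit near the right edge in every library, and trim63a has the widest range (18.8% to 52.6%).

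In glycolysis nearly all families had 1 copy at the top. The highest member held 99.2% ± 1.11 of the aldolases (aldoab), 99.9% ± 0.0368 of the pyruvate kinases (pkmb), 98.5% ± 0.427 of the lactate dehydrogenases (ldha) and 89.2% ± 1.09 of the glycogen phosphorylases (pygma, with pygmb next). For gapdh, the triose phosphate isomerase tpi1b, the phosphoglycerate mutase pgam2 and the phosphoglucomutase pgm1 the share exceeded 99% in every library. The phosphofructokinases, which gate glycolysis, were split 65.1% ± 0.266 to pfkmb, with pfkma next in the same assembled gene. Among the creatine kinases, ckmb held 72.0%, 72.7% and 70.6% and ckma 26.1% ± 0.986, and the mitochondrial ckmt2b 2.12% ± 0.179. The enolase ENO3 held 74.98%, 71.7% and 61.2%, and eno1a held 20.9%, 24.56% and 33.4%, and both lie in 1 assembled gene. Hexokinase, which admits glucose to the pathway, was low, with hk1 and hk2 together at 0.000172% of the total as a mean. Both hexokinase copies together thus took a far smaller read share than any glycolytic enzyme named above.

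In the contractile apparatus, the fast troponin C tnnc2 held 99.7%, 98.4% and 99.2% of its family and the slow and cardiac copy tnnc1b 0.331%, 1.58% and 0.828%. The fast troponin T tnnt3a held 98.3% ± 1.13, with tnnt2e next at 2044, 15671 and 8295 normalised counts. The fast troponin I was carried by tnni2a.3 (76.9% ± 0.303) and tnni2a.4 (22.6% ± 0.682), which share an assembled gene. These shares of fast isoforms, near the whole family in troponin C and T, are what the label fast-twitch muscle names. The slow copies tnnc1b and tnnt1 were nonetheless detected in every library.

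Myosin heavy chain by symbol was held by myhz1.1 at 63.3%, 73.6% and 71.6% of its family, and by MYH6 at 34.5%, 22.5% and 26.2%, with library 1 lowest for the former and highest for the latter. Both rows lie in 1 transcript cluster. The family by symbol held 1.46% of the total, and its split leaves out that cluster's rows without a symbol, 26.6% of the total. The next copies were myhz1.3 (1.37% ± 0.205), myha and myhb. The regulatory light chain mylpfa held 86.6% ± 0.269 beside mylpfb, and the essential light chain mylz3 held 87.1% ± 1.51 beside myl1. Tropomyosin, which covers the myosin sites on actin at rest, was tpm1 for 72.0% ± 1.03 and tpma next, and nebulin, the ruler of the thin filament, was nearly all neb, with nebl next at 4.80e-05 times its level. The myosin-binding proteins were led by mybpc2b (61.0% ± 2.47) with mybphb next, an order that turned round with rows summed.

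The actins were spread over more symbols, with acta1b at 30.5% ± 0.390 and ACTA1 at 27.8% ± 0.704 of the family. The cytoskeletal actb1, ACTB and actb2 stood at 4.95% ± 0.279, 0.0707% ± 0.0247 and 0.0425% ± 0.00205, and the actb1 row lies in the assembled gene of the skeletal actins. Titin, the spring that spans the sarcomere, had ttn.1 and ttn.2 in 1 assembled gene. Their highest rows were nearly equal, at 50.1% ± 0.710 and 49.9% ± 0.710. With all rows summed ttn.1 held 85.5% and ttn.2 14.5% as means. At the Z-disc, alpha-actinin was actn3a (58.4% ± 1.93) with actn3b, and myozenin was myoz1a at 90.2%, 84.8% and 82.2%, with myoz2a next. At the M-band MYOM2 held 35.6% ± 1.98 of the myomesins and myom1b 23.32% ± 0.307. The assembled gene that myom1b shares with myom1a led where rows were summed over the assembled gene. With all rows of each symbol summed MYOM2 led with 32.4%, and myom1b held 18.2%, as means. The PDZ and LIM proteins were led by ldb3b (39.3% ± 0.438) and pdlim7, and desmin by desma (96.2% ± 0.348). Among the myosin chaperone methyltransferases smyd1a held 93.1% ± 2.45, with smyd1b next.

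In calcium handling, the parvalbumins were divided between pvalb4 at 50.7%, 46.5% and 40.9%, pvalb3 at 30.5%, 32.8% and 34.5% and pvalb2 at 18.6% ± 1.17, all in 1 assembled gene. The separately assembled pvalb1 held 1.14%, 2.51% and 4.62%. The share of pvalb4 was highest in library 1 and that of pvalb1 in library 3. These shares are for 1 row per symbol. With all rows summed pvalb4 held 74.0%, pvalb3 17.4% and pvalb2 7.51% as means. The SERCA pump was atp2a1l at 68.8% ± 1.08, with atp2a1 at 17.3% ± 0.512 and atp2a2b at 13.4% ± 0.778 in the same assembled gene. With all rows summed atp2a1l held 87.2%, atp2a2b 6.59% and atp2a1 6.03% as means. That assembled gene also holds the placeholder si:dkey-28b4.8, at 0.275% of the total as a mean, which the family shares leave out. The ryanodine receptor, the release channel, was ryr3 for 57.6%, 61.1% and 61.0% and ryr1b for 39.8% ± 2.09. Their order turned round with rows summed, as did that of the calcium store proteins casq1a (69.4% ± 4.51) and casq1b. Junctophilin, which ties the membrane to the store, was jph2 at 88.9%, 74.98% and 75.6%, with jph1b next.

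Other families were led by hsp90aa1.2 of the cytosolic HSP90 chaperones, capn1a of the calpains and vdac2 of the outer mitochondrial channels, followed by hsp90ab1, capn3b and vdac3. The hemoglobin family as listed held only hbaa2 and hbba2, with means of 6433 and 5591 normalised counts. The globin HBE1, which the family did not hold, stood above both with a mean of 37362. Calmodulin was calm3b and calm2a, the cavins were cavin4a and cavin4b, and in both the order turned round with rows summed. Collagen I was col1a2 and col1a1b, and the sarcomeric Kelch proteins were klhl31 and klhl41b. Adenylate kinase was ak1 (98.7% ± 0.193), and elongation factor 1 alpha was eef1a1a (88.9% ± 1.37) with eef1a1l2 next.

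In 4 families the highest member differed between libraries. They were titin and the elongation factors 2 (eef2b and eef2l2), whose leading copies were nearly equal on their highest rows, and the muscle ring finger and four-and-a-half-LIM families. With all rows summed neither pair was nearly equal, and eef2l2 led with 58.1% against 21.4% for eef2b as means. These are shares of the family as listed, with eef2k and eef2kmt in it. The ubiquitin ligase trim63a, which marks muscle proteins for breakdown, had 1113, 3820 and 4255 normalised counts and held 18.8%, 52.0% and 52.6% of its family. Its relative trim55a had 2945, 2694 and 2825. Library 1 was the only library in which trim55a stood above trim63a.

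Among the 7715 symbols with a mean of 100 or more, the median coefficient of variation, SD over mean, was 0.271 with quartiles of 0.164 and 0.413. The coefficient was 0.5 or more for 1245 symbols, 16.1% of those kept, and 1 or more for 54. The 300 highest symbols had a median of 0.237, and 19 of them reached 0.5, of which 6 were placeholder names. Library 1 was the farthest from the other 2 for 3642 symbols (47.2%), library 2 for 26.6% and library 3 for 26.2%. At equal totals these shares were 46.2%, 27.7% and 26.1%.

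**Figure D4:**
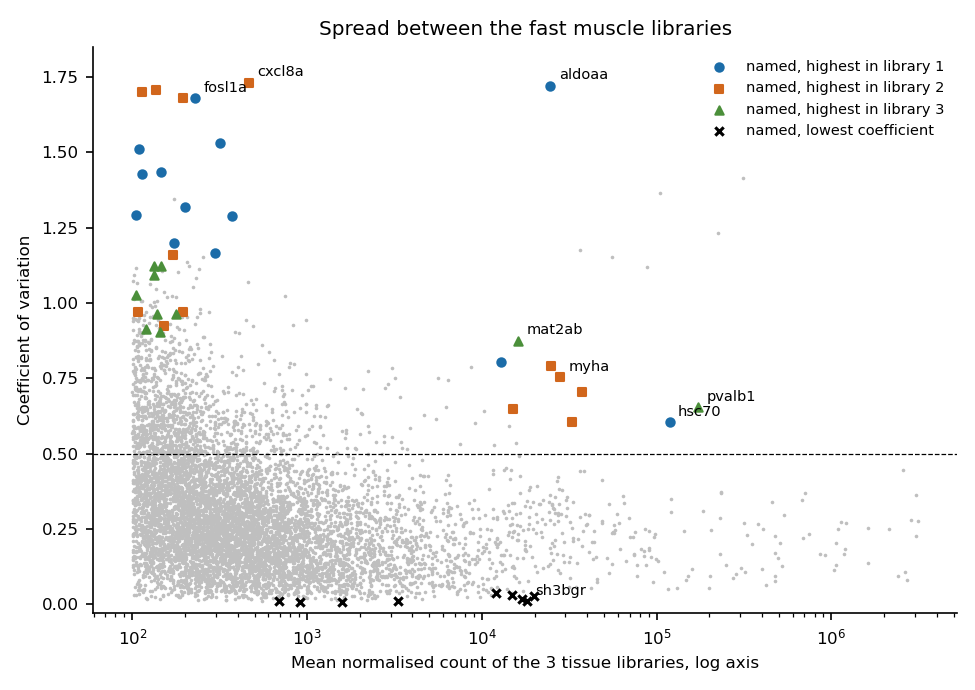
Coefficient of variation against the mean normalised count (log axis) for 7715 symbols, in grey, with the named symbols coloured and shaped by the library in which they were highest. The dashed line marks 0.5, reached by 1245 symbols. Among abundant symbols aldoaa (1.72) lies far above the rest of the named ones.

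The most uneven abundant gene was aldoaa, the second copy of muscle aldolase. It had 73526 normalised counts in library 1 against 167 and 121 in the others, and its rows summed to 77335, 2847 and 2395. In the same libraries aldoab ran from 2178210 to 3712910, so the aldolase family as a whole kept 97.9% or more in aldoab. The 6 placeholder names with a coefficient of 0.5 or more had the same shape. Together they held 0.648%, 0.0750% and 0.0906% of the totals, they lie in 2 assembled genes, and library 1 was 5.72 to 13.5 times the higher of the other libraries for each.

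Other symbols of the 300 with a wide spread fell into different patterns. The ribosomal protein RPL3L, which in mammals replaces RPL3 in striated muscle, had 24652, 9301 and 4800, and the chaperone hsc70 had 198372, 59234 and 98709. Both were highest in library 1. The myosin heavy chains myha with 24125, 51027 and 9210 and myhb with 18179, 46719 and 9224, were highest in library 2 and lowest in library 3.

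Another group of genes was highest in library 3. The parvalbumin pvalb1 had 97034, 118322 and 302648 normalised counts, and mat2ab, which makes S-adenosylmethionine, had 6283, 9787 and 32308. The nicotinamide riboside kinase nmrk2, which feeds NAD synthesis, had 7428, 15425 and 24160. In these 3 genes library 1 was lowest and library 2 in between. The same order was seen in scd, a fatty acid desaturase, with 1049, 1533 and 3475, in igfbp1a, which binds insulin-like growth factors, with 198, 405 and 837, and in irs2a, an insulin receptor substrate, with 316, 615 and 1285. These last 3, and nmrk2 before them, were picked after their values were seen. Of the 33 metabolic and hormone genes with a mean of 100 or more, 15 were lowest in library 1 and 9 highest in library 3, near the 40.2% and 30.4% of all symbols.

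Outside the 300, the symbols farthest up in library 1 were low in the other libraries. The AP-1 factor gene fosl1a had 669, 0 and 13.9 on its highest row and 669, 7.93 and 81.6 with all rows summed, which took its ratio from 48.0 to 8.20. On the highest row the amino acid transporter gene slc43a2a had 880, 45.6 and 27.8, and the growth factor activator hgfac 300, 11.9 and 15.9. The proton pump subunit tcirg1b had 300, 19.8 and 19.9, and icn, immp1l, and the transketolase tkta stood 13.8, 9.41 and 7.92 times above the higher of the other libraries. With rows summed icn stood 7.35 times above. Another 3 of the 15 widest spreads, itga3b, rsbn1 and the carboxypeptidase cpa1, were also highest in library 1.

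In library 2 the chemokine cxcl8a had 1387 against 0 in both other libraries, at least 173-fold above the floor of 3 reads. Its further rows were less one-sided, and all rows summed to 877, 2787 and 364. The neuronal calmodulin-binding protein nrgna had 0, 403 and 3.98, and the platelet integrin itga2b 0, 335 and 3.98. The clotting factor subunit f13a1b had 0, 571 and 11.9 on its highest row, but 166, 770 and 185 with all rows summed, 4.16 times the higher of the others. The kinase map3k5, the lipid droplet protein plin2, the cardiac light chain cmlc1 and tenm1 stood 3.97 to 4.41 times above the higher of the others.

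In library 3 no ratio of highest rows to the higher of the other libraries passed 5.41. With rows summed sat1a.2 stood 5.89 times, aptx 4.11 times and necab1 3.06 times above the higher of the others. The DNA repair gene aptx had 42.8, 55.5 and 300.4, and the polyamine acetyltransferase sat1a.2 had 37.4, 65.5 and 334. The fast myosin heavy chain myhz2 had 64.2, 57.5 and 290.4, while necab1, nat15, the chemokine receptor ccr9a, icmt and lrig2 were 3.98 to 4.21 times the higher of the others. On the deposited scale the lowest spreads belonged to the splicing factor srrm1, at 1560, 1577 and 1581, and to lman2, sh3bgr, angptl2a and hnrnpa0, all with a coefficient under 0.0118. As a share of the library total srrm1 was lower in library 1, with 0.000493%, 0.000637% and 0.000637%. Within the 300, on the deposited scale, sh3bgr was followed by the muscle transcription factor mef2aa at 16949, 16528 and 17058, the ferritin fth1a, the Z-disc protein pdlim5b and the ATP synthase subunit atp5pb.

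Genes of slow and cardiac-type fibres differed between the libraries in 1 common order, with few exceptions. Of 22 listed, 16 matched a symbol and 13 had a mean of 100 or more. Of those 13, 11 were lowest in library 1, against 40.2% of all symbols, and 10 were highest in library 2, against 31% of all symbols. At equal totals 11 were lowest in library 1, against 59.2% of all symbols, and 10 highest in library 2, against 40.3%. A smaller amount of slow fibre in the sample and less slow-fibre RNA per cell cannot be told apart in bulk tissue.

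**Figure D5:**
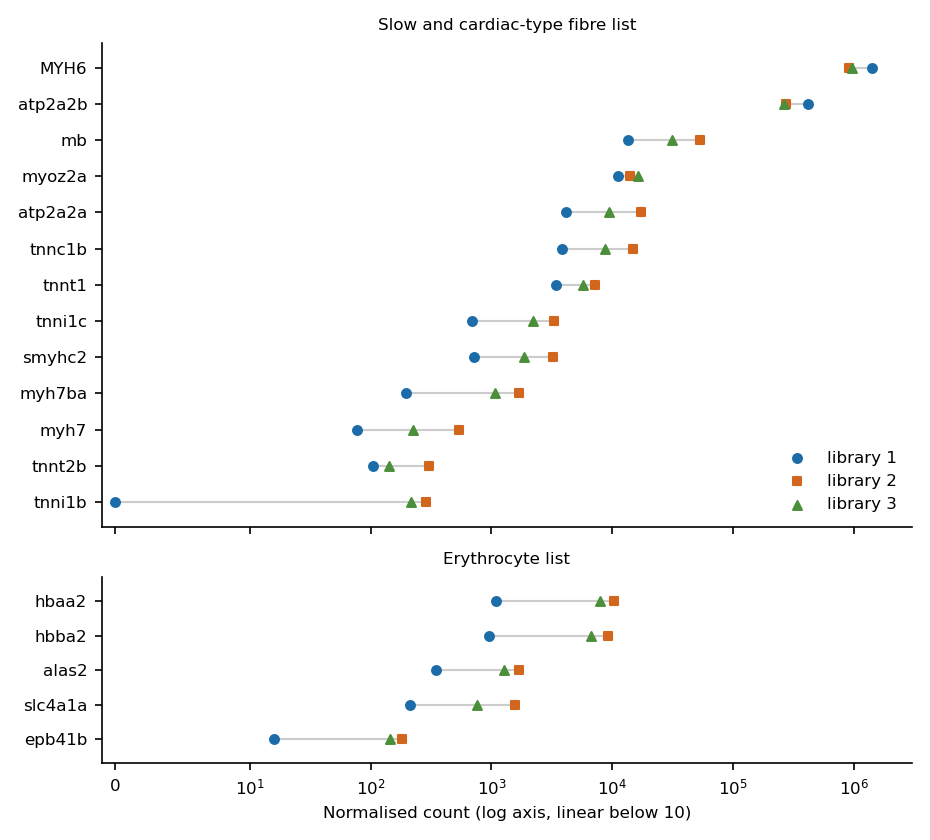
Normalised counts (log axis, linear below 10) of the listed genes of slow and cardiac-type fibres and of erythrocytes with a mean of 100 or more, 1 mark per library. Library 1 is lowest for 11 of 13 and 5 of 5 genes, and MYH6 and atp2a2b go the other way.

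The oxygen store myoglobin, mb, had 13522, 52985 and 31391, the troponin C tnnc1b 3806, 14693 and 8731, and the slow myosin heavy chain smyhc2 717, 3225 and 1874. The slow troponin I tnni1b had 0, 286 and 215. In each of them library 1 was lowest and library 2 highest. The Z-disc gene myoz2a, with 11216, 14018 and 16173, was also lowest in library 1 but highest in library 3. Highest in library 1 were MYH6 at 1404730, 908089 and 955293 and atp2a2b at 415690, 271263 and 263041. Both share a transcript cluster with fast fibre genes, and together they carry most of the list's sum, 1858320, 1294960 and 1295680. Without the members that share such a cluster, which also removes atp2a2a, the sum was 33779, 98446 and 67939, and all 10 remaining genes with a mean of 100 or more were lowest in library 1. The thick filament genes myl13 with 6166, 25444 and 13509 and myl10 with 5834, 22665 and 14094 had the same order. Most thick filament genes did not. Of the 21 on that function list with a mean of 100 or more, 7 were lowest in library 1 and 8 highest in library 2 on the deposited scale. Of all symbols, 40.2% and 31% were.

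Erythrocyte genes had the widest range of any marker list. Of 12 listed, 6 matched a symbol, and their sum was 2616, 22963 and 16841. The globins hbaa2, with 1091, 10349 and 7858, and hbba2, with 950, 9109 and 6714, led it, and gata1a, an erythroid transcription factor, was at 0 in library 1. All 5 with a mean of 100 or more were lowest in library 1 and highest in library 2 on both scales. Of all symbols, 40.2% were lowest in library 1 and 31% highest in library 2 on the deposited scale, and 59.2% and 40.3% at equal totals, so at equal totals most symbols shared the position of library 1. The sum of the list differed by 8.78 times between libraries on the deposited scale and by 11.2 times at equal totals. The globin HBE1 of the 300 had 7113, 54959 and 50014. Erythrocyte and slow-fibre genes thus differed between the same libraries, and their part in the other differences was not tested.

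Of the remaining marker lists, the sum with the widest range differed by 1.65 times between libraries on the deposited scale (epidermis) and by 1.92 times at equal totals (adipocyte). The slow list with all its members differed by 1.44 and 1.13 times. Fibroblast genes, 12 of 13 matched and led by col1a2 and col1a1b, summed to 565201, 463854 and 461681, and at equal totals library 1 became the lowest, with a range of 1.05 times. Leukocyte genes, 10 of 19, summed to 9571, 7407 and 7565, led by the antigen-presentation genes cd74a and cd74b. At equal totals the range of the leukocyte sum was 1.02 times, and library 1 was no longer the highest. That list also holds cd3eap, a name that refers to an RNA polymerase subunit. Endothelial genes, 11 of 13, summed to 4085, 5717 and 5731, led by plvapa and kdrl. Within them cdh5, the endothelial cadherin, was at 8.02, 385 and 977, the widest range of that list, while pecam1 had 492, 389 and 326 on the deposited scale.

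Smooth muscle and pericyte genes, 11 of 12, summed to 7094, 7058 and 7901 without acta2, led by rgs5a and desmb. At equal totals library 1 became the lowest for this sum, with a range of 1.42 times. Adipocyte genes, 7 of 12, summed to 3713, 5570 and 4965, led by fabp11a and the lipoprotein lipase lpl, and plin1 and pparg were at 0 in library 1. Schwann and neuronal genes, 8 of 16, summed to 3247, 4160 and 4786, led by the myelin genes mpz and mbpa. Epidermal genes, 3 of 8, summed to 6043, 3658 and 4164, mostly from the keratin krt4, with krt5 next. Tendon and cartilage genes, 5 of 8 and led by col2a1a and tnmd, summed to 6356, 6487 and 7523.

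Satellite cell and myogenic genes, 11 of 12, had sums of 4486, 4394 and 4189, the smallest range of the lists on the deposited scale (1.07 times). At equal totals library 1 became the lowest, and the range of 1.25 times was no longer the smallest. The integrin itga7 led with 1755, 1880 and 1568, and the myogenic factor myod1 followed with 1297, 1069 and 1207. The stem cell gene pax7b had 428, 538 and 302, and the fusion gene mymk was at 0 in libraries 1 and 3.

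Among the listed functions, glycolysis, glycogen and phosphocreatine genes were highest in library 1 for 35 of 50 with a mean of 100 or more, against 38.6% of all symbols, and at equal totals for 23 of 50, against 20.3%. The chaperone list was lowest in library 1 for 16 of 21, against 40.2% of all symbols. It was led by the methyltransferase smyd1a and did not hold the chaperone hsc70, which was highest in library 1 on both scales. On the deposited scale the chaperone sum went the other way, with 159291, 136145 and 152130, highest in library 1. The leading member smyd1a, with 91534, 60338 and 67458, was also highest there. At equal totals library 1 became the lowest for the chaperone sum, with a range of 1.22 times. The immediate early list was lowest in library 1 for 20 of 28 on the deposited scale, with a sum of 31211, 36781 and 41480. At equal totals these counts were 17 of 21 and 23 of 28, where 59.2% of all symbols were lowest in library 1. The immediate early genes, which switch on soon after a stimulus, were led by the nuclear receptor nr4a1 at 5740, 2916 and 4325 and by btg2 at 2870, 3640 and 4468.

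Protein breakdown genes were led by klhl31 at 0.0356% ± 0.00311 of the total and klhl41b, both of which bear on sarcomere upkeep. The circadian clock genes were led by per3 at 12786, 10373 and 9634 and bhlhe40 at 6179, 5737 and 5482, and clocka was at 0 in all 3 libraries. The metabolic and hormone list was led by fabp3, a muscle fatty acid carrier, at 7995, 5294 and 7864, and by fkbp5, a target of glucocorticoids, at 5243, 4931 and 3320. The growth factor igf1 was at 0 in all 3 libraries, which allows levels of up to 8.02, 5.95 and 5.97 in them. The single myostatin symbol, mstnb, which restrains muscle growth, held 0.000313% of the total as a mean.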

How the data were processed

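Poly(A) RNA of fast muscle and of cultured cells was sequenced with a stranded kit, and RNA was extracted with TRIzol, per the labels' protocols. Bowtie2, Trimmomatic, FastQC 0.11.8, DESeq2 and the genome build GRCz11 are named per the submitters' processing notes, which state neither roles nor order. What counted the reads is not given in the sources used here, nor is the treatment of multiply matching reads. The deposited table gives normalised counts with decimal commas for 71447 transcripts, by the authors. Each tissue value was a whole multiple, within 0.01 of a read, of the library's smallest value above 0 (2.67, 1.98 and 1.99), and recovered reads are the value over that step.

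The members, function classes, families and lists were chosen with earlier results of these data known. Only the 3 tissue libraries entered, and no test was run, since there was 1 group. Named genes were the 20 highest, the first 2 members of each of 50 families, the 2 highest of each list, the 15 highest and 5 lowest coefficients of variation, the 10 highest within the 300, and the 8 highest ratios per library. Other named members, such as cdh5, igf1 and nmrk2, were chosen after their values were seen. Placeholder names were counted but not described. A few of the genes this rule names are not reported here. Library pairs differed by 58.1 to 140.6 in chi-square per degree of freedom, so none was a duplicate. Equal totals, summed rows, other minimum means, other rankings and leaving out each library were tried. The code was tested on simulated counts. The software was Python 3.11.15, with matplotlib 3.10.9, scipy 1.17.1, numpy 2.4.6 and pandas 2.3.3.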

Additional observations from a re-analysis of the deposited data

How the results depend on the processing

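No paired analysis was possible because the values come from 1 group and from no test. The share of the 300 highest symbols, 22.4%, became 90.7% of the kept rows alone, 59.9% with all rows of a symbol summed and 31.2% with identifier-named rows ranked as well, and that of the 10 highest rose from 9.59% to 27.4% with rows summed. Summing rows also raised every class share, to 13.3% for energy supply, 15.5% for the thin filament, 7.44% for the thick filament, 9.09% for calcium handling, 4.79% for titin, M-band and Z-disc, 2.09% for ribosomal proteins, 1.62% for mitochondrial genes, 1.75% for placeholder names, 1.28% for matrix, 1.17% for translation, 1.12% for other genes, 0.0831% for heat shock cognates, 0.0750% for the methionine cycle and 0.0545% for globins. The thin filament then stood above energy supply. Leaving out each library kept the highest member in 47 to 49 of 49 families. Summing over assembled genes kept it in 45, where a change between members of 1 assembled gene was counted as kept. In the 16 families whose 2 highest members share an assembled gene, this could not show a change between those 2.

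The 1245 symbols with a coefficient of variation of 0.5 or more became 2276 with rows summed. As a share of symbols kept, 16.1% became 23.6% with rows summed, 23.4% at a minimum mean of 50, 5.87% at 500 and 39.5% with no minimum. Of the 50 symbols with the highest coefficients, 15 were among the 50 highest by SD of log2 with a pseudocount of 1 or 0.5, and 17 with 5. Lists whose highest library reached 2 times the lowest numbered 1, and 2 without the members that share a transcript cluster with fast fibre genes, an alternative chosen after seeing the data, in which the range of the slow list was 2.91 times and the highest and lowest libraries changed places. A correction for protein length was not run. The causes of these changes were not tested. The depth limits values near 3 reads.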
